A study of Rattus norvegicus with 9 samples.

Results

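Glutamate and GABA receptor subunit genes were taken from the count table by symbol. The rule took the numbered Gria, Grik, Grid and Grm genes and the NMDA genes Grin1, Grin2a to Grin2d, Grin3a and Grin3b. It also took all symbols that begin with Gabra, Gabrb, Gabrg, Gabrd, Gabre, Gabrq, Gabrp, Gabrr or Gabbr. It found 44 of the 23953 genes listed. By family these were 4 AMPA, 5 kainate, 2 delta and 7 NMDA receptor subunits, 2, 2 and 3 metabotropic glutamate (mGlu) receptors of groups I, II and III, 14 GABA-A receptor subunits, 3 GABA-A rho subunits and 2 GABA-B receptor subunits. Gabra6, Gabrp and Grm6 were not analysed here. The rule used no measured value.

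RNA was sequenced from neural stem cells (NSCs), which give rise to neurons and glia. They are labelled as coming from rat spinal cords, and the study's methods describe newborn animals. All 9 libraries came from NSCs in differentiation medium. The Con group (n = 3) received no exosomes. The Exo group (n = 3) received exosomes, small secreted vesicles, from bone marrow mesenchymal stem cells (BMSC-Exos) of Sprague–Dawley rats. The pLV-Exo-Wnt5a group (n = 3) received exosomes of BMSCs that carried a lentivirus for overexpression of Wnt5a. The virus was put into the donor cells only. By the study's methods the donors of the Exo group carried an empty lentivirus, which the labels do not mention. All libraries bear the same batch label. Nothing in the labels says that the 3 libraries of a group came from separate animals or cultures, so the p-values measure the spread between these libraries, which may be technical.

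Glutamate is the main excitatory transmitter of the central nervous system and GABA the main inhibitory one. AMPA, kainate and NMDA receptors are cation channels opened by glutamate, GABA-A receptors are chloride channels opened by GABA, and mGlu and GABA-B receptors act through G proteins. Which subunits a cell makes sets the kinetics, the calcium entry and the location of its receptors, and the mixture is known to shift as neurons mature. Astrocytes and oligodendrocyte precursors also make some of these receptors.

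Total counts were between 32765138 and 40427647 per library (median 39653977), so that 3 counts were 0.0727 to 0.0913 CPM (counts scaled to a common library size, after TMM normalization). A gene with 0 counts may lie anywhere up to this level, which covers counting error only. Con replicate 1 stood apart, with a TMM factor, the correction for the composition of a library, of 0.965 against 0.996 to 1.02 for the others, and a mean distance from the other libraries (Euclidean, log2 CPM) of 76.6 against 59.7 to 66.0. The label of the tissue was checked against position genes. The 12 Hox genes listed, which mark the spinal cord, reached at most 22 counts in a library (Hoxb13) and at most 4 for the others, whereas all 5 forebrain genes checked (Emx1, Emx2, Otx1, Tbr1 and Neurod6) were above 3 counts in every library, with a summed level of 163 to 236 CPM. Both readings go against the label. Markers of neurons (Tubb3, 1521 to 2054 CPM), astrocytes (Gfap, 2204 to 4080 CPM), oligodendrocyte precursors (Olig2, 440.4 to 565 CPM) and neural stem cells (Sox2, 404 to 687 CPM) were present in every library. In such mixed cultures, fewer cells of a type and less RNA per cell cannot be told apart.

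Promoters of the receptor genes were read from RefSeq's rat assembly GRCr8, which is not known to be the build behind the counts and gives the sequences only. The table held 28 of the 44 genes by symbol. Genes in the count table are named and numbered as in the mouse, whereas the samples are labelled as rat, so each promoter is that of the rat gene of the same symbol. The 250 bases before the start site of Gabra4 and Gria4, the genes with the smallest unadjusted p between the Exo and Con groups, and of Gabra5, with the smallest p among the genes higher in pLV-Exo-Wnt5a than in Con, are shown so that the sequence can be read beside the levels given later. They lie at chr14:36944497-36944746 on the plus strand (Gabra4), chr8:10319882-10320131 on the minus strand (Gria4) and chr1:117516607-117516856 on the minus strand (Gabra5), and capitals mark a GC box (GGGCGG or its reverse complement) in Gabra4 and Gabra5 and adjoining matches of the E-box CAGCTG in Gria4.
Gabra4: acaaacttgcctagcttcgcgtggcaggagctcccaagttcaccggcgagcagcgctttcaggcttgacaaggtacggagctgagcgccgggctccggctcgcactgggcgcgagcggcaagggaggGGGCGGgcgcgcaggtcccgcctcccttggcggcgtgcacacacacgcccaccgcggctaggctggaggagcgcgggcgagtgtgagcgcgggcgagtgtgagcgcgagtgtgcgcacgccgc
Gria4: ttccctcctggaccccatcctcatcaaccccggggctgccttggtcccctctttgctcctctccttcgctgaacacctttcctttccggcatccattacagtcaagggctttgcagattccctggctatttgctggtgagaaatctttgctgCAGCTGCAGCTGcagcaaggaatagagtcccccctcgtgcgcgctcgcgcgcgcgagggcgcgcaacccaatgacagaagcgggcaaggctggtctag
Gabra5: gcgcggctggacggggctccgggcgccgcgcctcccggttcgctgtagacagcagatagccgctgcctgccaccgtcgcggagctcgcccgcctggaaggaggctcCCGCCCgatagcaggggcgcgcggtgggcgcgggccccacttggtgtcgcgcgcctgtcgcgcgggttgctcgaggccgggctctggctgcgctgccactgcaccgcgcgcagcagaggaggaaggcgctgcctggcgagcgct
Over both strands, a GC box was in 11 of the 28 promoters (39.3%) and in 30.5% of all 33469 promoters of the table. CAGCTG was in 5 (17.9%) against 12% of all, TATAAA in 2 (7.14%, Gabra3 and Gabrr2) against 12.9%, and the cAMP response element TGACGTCA in 0 against 1.59%. A promoter counted once however many matches it held, the motifs were searched independently of each other, and a match describes the letters only.

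The filter of edgeR on low counts kept 39 of the 44 genes in each of the 3 comparisons. Gabre was kept only for pLV-Exo-Wnt5a against Con, and Gabrr1, Gabrr2, Gabrr3 and Grin3b in none. With edgeR's quasi-likelihood test and Benjamini-Hochberg adjustment over all genes tested (Q), 0 of the receptor genes had Q under 0.05 in any comparison. The differences below therefore did not pass the adjustment, and unadjusted p-values serve only to order and count them. The study's limit on fold change, above 2 or below 0.5, left 0 receptor genes too, against 0.00664%, 0.159% and 0.0663% of all genes for Exo against Con, pLV-Exo-Wnt5a against Exo and pLV-Exo-Wnt5a against Con.

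The first question was how exosome treatment moved the receptor genes. In the Exo group, 31 of the 39 receptor genes had a higher and 8 a lower level than in the Con group, with a median log2FC of 0.23, against a median of 0.00 over all 15070 genes tested, of which 50.3% were above 0 and 49.7% below. At an unadjusted p under 0.05, 13 were higher and 1, Grin2c, was lower, where 14.9% of all genes were called in either direction, 8.92% higher and 6.01% lower. The 3 Exo libraries were all above the 3 Con libraries for 13 genes and all below them for 1, against 10.9% and 12.4% of all genes. Among the 13 genes higher at that p were, in order of p, Gabra4, Gria4, Gria3, Grm5, Gabra5, Gabra3, Gabbr2, Grm7, Gria2 and Grin2b. Q under 0.05 was reached by 0.00664% of all genes in edgeR, and the receptor genes had Q between 0.265 and 0.993. DESeq2 gave 3 receptor genes at Q under 0.05 (Gabra4 and Gria4 among them), where it called 1.74% of all genes. Con replicate 1 had the lowest level of the 9 libraries for 24 of the 39 genes and for all 13 genes higher at an unadjusted p under 0.05. Without it, 8 genes were left at that p, 7 of them higher (Gabra4, Gabra5, Gria3, Gria4 and Grm5 among them), where 12.1% of all genes were called and 6.81% were called higher, and the median log2FC was 0.16. The count was 6 without Exo replicate 1 (8.68% of all genes), 5 without Exo replicate 2 (8.64%) and 9 without Exo replicate 3 (12%). Without Con replicate 3, 5 genes passed Q under 0.05 (Gabra3, Gabra4 and Gabra5 among them), where 2.4% of all genes did.

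The second question was what Wnt5a overexpression in the donor cells added. Against Exo, 28 of the 39 receptor genes were lower and 11 higher in the pLV-Exo-Wnt5a libraries, with a median log2FC of -0.19, against 0.00 over all 15132 genes tested, of which 51.4% were above 0 and 48.6% below. At an unadjusted p under 0.05, 14 were lower and 0 higher, where 6.91% of all genes were called lower and 5.07% higher, 12% in all. All 3 libraries of the pLV-Exo-Wnt5a group were below all 3 Exo libraries for 13 genes and above them for 0, against 8.9% and 7.5% of all genes. Among the 14 were, in order of p, Grin2b, Gria2, Gabra4, Gria3, Gria4, Gabrb2, Grin3a, Gabra3, Grm5, Grik2, Gabrb1 and Gabrg1. The Q of all 14 was at least 0.0983, whereas 0.436% of all genes passed Q under 0.05 in edgeR. DESeq2 gave 3 receptor genes at Q under 0.05 (Gria2, Grin2b and Gabra4), where it called 2.72% of all genes. The count at an unadjusted p under 0.05 was 9 when either Exo replicate 2 or replicate 2 of pLV-Exo-Wnt5a was left out, where 8.67% and 9.39% of all genes were called. Both comparisons use the same Exo libraries, and 9 genes (Gabra3, Gabra4, Gria2, Gria3, Gria4, Grin2b and Grm5 among them) stood in both lists, 69.2% of the 13 and 64.3% of the 14. An Exo library with high levels of these genes enters both, so the second list does not check the first.

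For pLV-Exo-Wnt5a against Con, 21 of 40 receptor genes were higher and 19 lower, with a median log2FC of 0.03 against 0.00 over all 15089 genes, of which 50.8% were above 0 and 49.2% below. At an unadjusted p under 0.05, Gabra5 was higher and Grin2c lower, against 4.2% and 4.15% of all genes (8.35% in all). The libraries did not overlap for Gabbr2 (higher) and for Grin2c and Gabrg3 (lower), against 7.67% of all genes higher and 9.41% lower. Q was between 0.515 and 0.986 in edgeR, where 0.0862% of all genes passed 0.05, and DESeq2 gave 0 receptor genes at Q under 0.05 and 3 at an unadjusted p under 0.05 (8.19% of all genes). In edgeR the count at that p was 7 of 40 with Con replicate 3 left out, near the 14.4% of all genes called there, and 5 of 41 with pLV-Exo-Wnt5a replicate 3 left out, where 7.61% were called. Leaving out replicate 2 of either group gave 1, where 6.13% (Con) and 5.87% (pLV-Exo-Wnt5a) of all genes were called. The median log2FC ran from 0.02 to 0.11 as each library was left out.

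**Figure D1:**
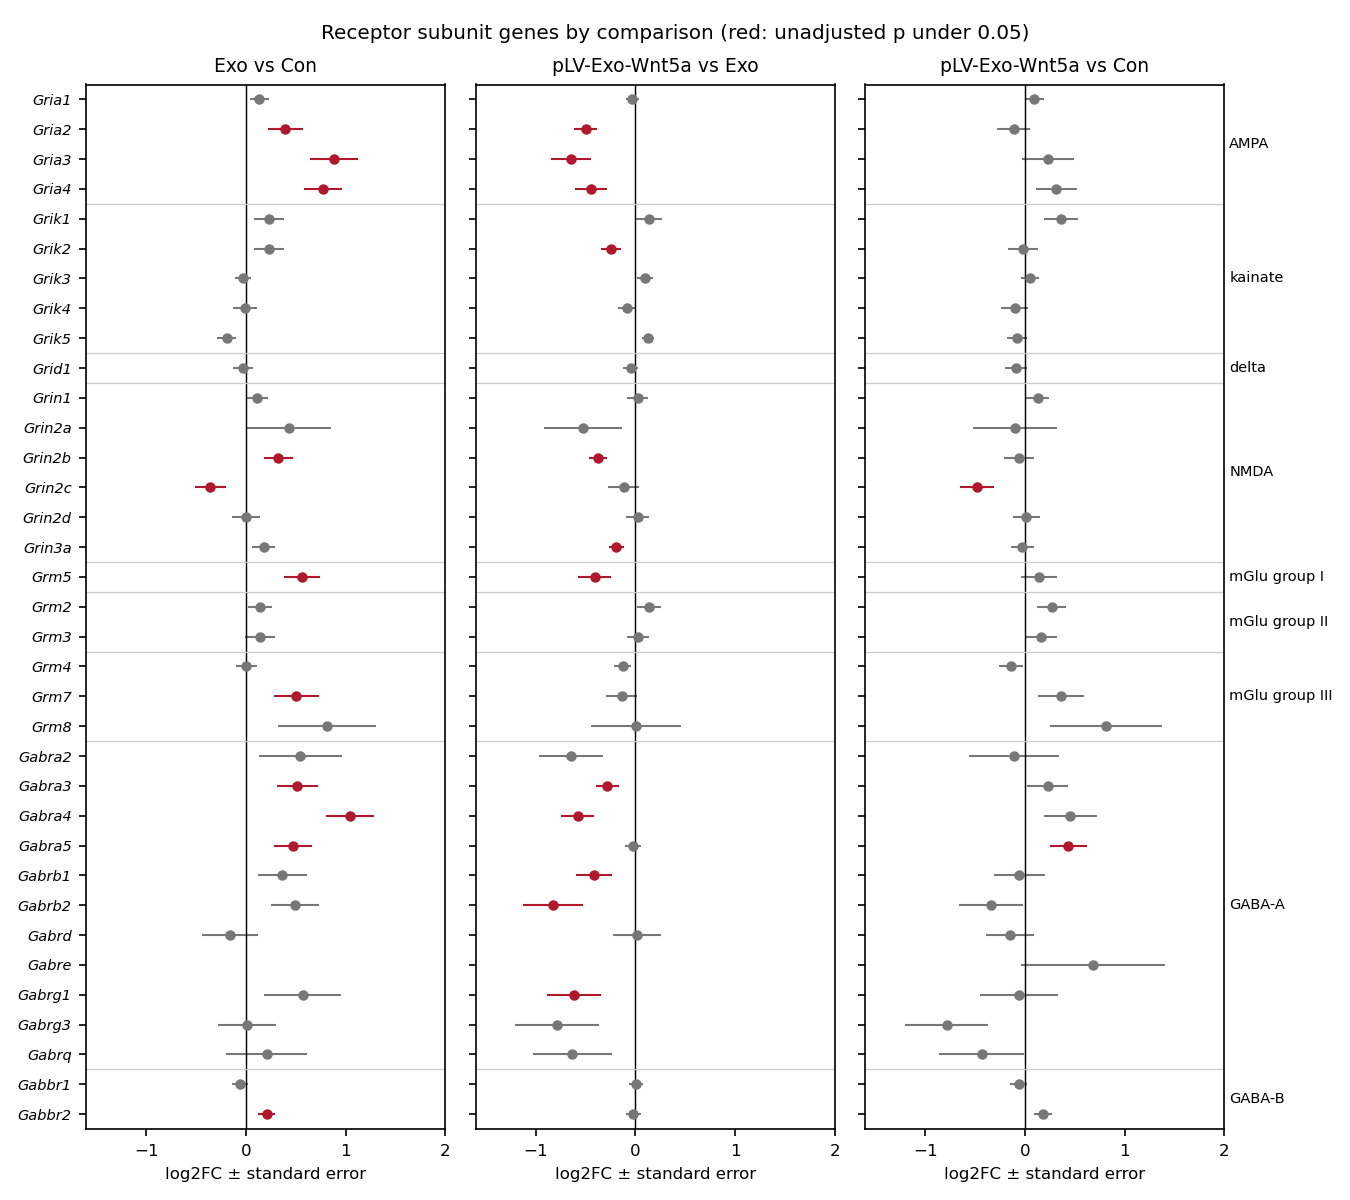
Log2FC of 35 of the 40 receptor genes tested in at least 1 comparison, by receptor family, with bars of 1 standard error on each side and red for an unadjusted p under 0.05 (edgeR, 3 libraries per group). Red points lie to the right in the Exo vs Con panel except for Grin2c, to the left in the pLV-Exo-Wnt5a vs Exo panel, and mark only Grin2c and Gabra5 in the third panel; none passed Q under 0.05.

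Among the AMPA receptor genes, which encode the fast excitatory channel, all 4 were higher in the Exo than in the Con group (median log2FC 0.58, 3 at an unadjusted p under 0.05, where 8.92% of all genes were higher at that p) and all 4 lower in pLV-Exo-Wnt5a than in Exo (median -0.47, 3 at that p, against 6.91% of all genes). Gria2 (NCBI gene number 14800), the subunit that in its edited form keeps calcium out of the channel, was at 12.3, 14.5 and 19.6 CPM in Con replicates 1, 2 and 3, at 23.8, 19.9 and 17.7 CPM in the Exo replicates and at 14.7, 14.3 and 14 CPM in the pLV-Exo-Wnt5a replicates. The pLV-Exo-Wnt5a libraries were close together and below every Exo library, while Con replicate 3 lay among the Exo libraries. Its log2FC was 0.40 (standard error 0.18, Q = 0.334) between Exo and Con and -0.50 (standard error 0.12, Q = 0.102) between pLV-Exo-Wnt5a and Exo. Gria3 (NCBI gene number 53623) was at 1.69, 2.11 and 2.77 CPM in Con replicates 1, 2 and 3, at 4.81, 3.74 and 3.64 CPM in the Exo replicates and at 2.32, 2.43 and 2.93 CPM in the pLV-Exo-Wnt5a replicates. Every Exo library was above every library of the other groups, and its log2FC was 0.89 (standard error 0.24, Q = 0.265) against Con and -0.65 (standard error 0.20, Q = 0.226) for pLV-Exo-Wnt5a against Exo. Gria4 (NCBI gene number 14802) was at 3.27, 4.37 and 4.63 CPM in Con replicates 1, 2 and 3, at 7.85, 6.04 and 7.15 CPM in the Exo replicates and at 5.5, 4.46 and 5.33 CPM in the pLV-Exo-Wnt5a replicates. It had the same order, with the Exo libraries highest, at a log2FC of 0.77 (standard error 0.19, Q = 0.265) against Con and of -0.45 (standard error 0.16, Q = 0.298) for pLV-Exo-Wnt5a against Exo. Gria1 (NCBI gene number 14799), the GluA1 subunit, was at 128 ± 15.5 CPM in Con, 141 ± 7.29 CPM in Exo and 137 ± 5.3 CPM in pLV-Exo-Wnt5a libraries (SD, n = 3 each). Its groups overlapped in all 3 comparisons.

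The kainate receptor genes, whose products act on both sides of the synapse, were split, with 2 higher and 3 lower in the Exo than in the Con group (median log2FC -0.01) and a median of 0.09 for pLV-Exo-Wnt5a against Exo. Grik2 (NCBI gene number 14806), a subunit that can form channels alone, was the one called at an unadjusted p under 0.05, at 17.8 to 19.6 CPM in the Exo and 14.5 to 16.4 CPM in the pLV-Exo-Wnt5a libraries (log2FC -0.24 (standard error 0.10, Q = 0.377)). Grik1 (NCBI gene number 14805) was at 8.04 to 10.7 CPM in Con, 11.1 to 11.5 CPM in Exo and 10.2 to 13.6 CPM in pLV-Exo-Wnt5a libraries, with a log2FC of 0.36 (standard error 0.17, Q = 0.599) between pLV-Exo-Wnt5a and Con. Grik5 (NCBI gene number 14809), a subunit that needs a partner such as Grik2 to form a channel, had its highest level in Con replicate 1, 383 CPM, where most receptor genes were lowest, and was at 288 to 333 CPM in the other 8 libraries. Grik3 (NCBI gene number 14807) was between 163 and 201 CPM and Grik4 (NCBI gene number 110637) between 18.0 and 23.1 CPM in the 9 libraries, with log2FC between -0.10 and 0.09 in the 3 comparisons. The delta receptor genes, whose products join presynaptic and postsynaptic sides through cerebellins, include Grid1 (NCBI gene number 14803), which was between 50.1 and 65.5 CPM and did not separate the groups.

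The NMDA receptor genes encode the calcium-permeable channel that needs glutamate and glycine together. Grin2b (NCBI gene number 14812), the glutamate-binding subunit typical of immature neurons, was at 21.7, 31.6 and 32.2 CPM in Con replicates 1, 2 and 3, at 34.2, 37.7 and 35.7 CPM in the Exo replicates and at 25.5, 29.4 and 27.4 CPM in the pLV-Exo-Wnt5a replicates. All Exo libraries were above the others. It had the smallest Q of the receptor genes in any comparison, with a log2FC of -0.37 (standard error 0.09, Q = 0.0983) for pLV-Exo-Wnt5a against Exo, and its log2FC for Exo against Con was 0.32 (standard error 0.15, Q = 0.334). Grin2c (NCBI gene number 14813), a subunit known from cerebellar granule cells and astrocytes, was the exception in direction and was at 11.5, 12.8 and 10.5 CPM in Con replicates 1, 2 and 3, at 9.51, 7.77 and 10.1 CPM in the Exo replicates and at 8.38, 9.68 and 7.02 CPM in the pLV-Exo-Wnt5a replicates. Every Con library was above every library of both exosome groups, with a log2FC of -0.36 (standard error 0.15, Q = 0.321) for Exo and -0.48 (standard error 0.17, Q = 0.515) for pLV-Exo-Wnt5a against Con, and the exosome groups overlapped. Grin3a (NCBI gene number 242443), a glycine-binding subunit that lowers calcium entry, was at 34.6 to 44.8 CPM in Con, 44.7 to 49.5 CPM in Exo and 39.5 to 41.4 CPM in pLV-Exo-Wnt5a libraries. The last were below all Exo libraries (log2FC -0.19 (standard error 0.07, Q = 0.335)). Grin1 (NCBI gene number 14810), the subunit every NMDA receptor needs, was at 107 ± 8.81 CPM in Con, 116 ± 11.7 CPM in Exo and 117 ± 16.5 CPM in pLV-Exo-Wnt5a libraries (SD, n = 3 each). Its antisense gene Grin1os had 4 to 16 counts per library, which cannot be told apart from Grin1 if strand was not used in counting. Grin2d (NCBI gene number 14814) was between 14.5 and 18.9 CPM with log2FC between 0.00 and 0.02. Grin2a (NCBI gene number 14811), which replaces Grin2b as neurons mature, was between 0.441 and 1.37 CPM (17 to 53 counts). Grin3b (NCBI gene number 170483) had 2 to 26 counts and was not tested.

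Of the mGlu receptors, those of group I raise calcium through phospholipase C. Grm5 (NCBI gene number 108071), of this group, was at 7.21, 8.09 and 9.77 CPM in Con replicates 1, 2 and 3, at 15, 12.1 and 10.2 CPM in the Exo replicates and at 10.7, 7.55 and 9.54 CPM in the pLV-Exo-Wnt5a replicates. All Exo libraries were above the Con libraries, while Exo and pLV-Exo-Wnt5a overlapped, with a log2FC of 0.56 (standard error 0.18, Q = 0.265) for Exo against Con and -0.41 (standard error 0.17, Q = 0.366) for pLV-Exo-Wnt5a against Exo. Groups II and III lower cyclic AMP. Grm7 (NCBI gene number 108073), a presynaptic receptor, was at 7.39 CPM in Con replicate 1, 13.7 and 13.9 CPM in the other Con libraries and 14.7 to 19.6 CPM in the Exo libraries (log2FC 0.51 (standard error 0.23, Q = 0.334)) and the highest Con library lay just below the lowest Exo library. Grm2 (NCBI gene number 108068) had means of 25.6, 28.4 and 31.0 CPM in Con, Exo and pLV-Exo-Wnt5a, with a log2FC of 0.27 (standard error 0.14, Q = 0.642) between the last and Con. Grm3 (NCBI gene number 108069), a group II receptor found on astrocytes, was between 8.67 and 13.2 CPM, Grm4 (NCBI gene number 268934) between 20.1 and 25.1 CPM and Grm8 (NCBI gene number 14823) between 0.208 and 1.37 CPM (8 to 50 counts), all with overlapping groups.

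**Figure D2:**
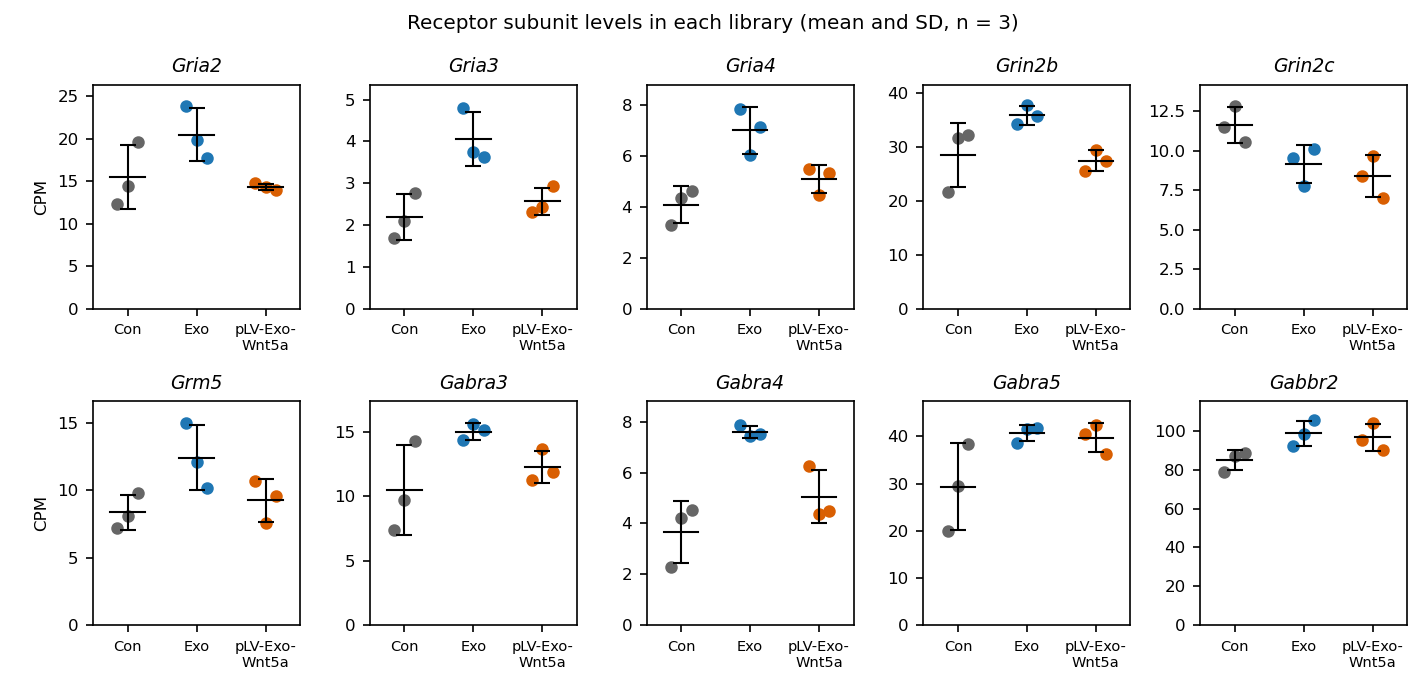
CPM (TMM-normalized) of 10 receptor genes in each library, 1 point per library in replicate order, with the mean and SD of the 3 libraries of a group. The Exo libraries are all above the Con libraries for Gria3, Gria4, Grin2b, Grm5, Gabra3, Gabra4, Gabra5 and Gabbr2, Con replicate 1 is the lowest point in those panels, and Grin2c runs the other way.

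The GABA-A receptor genes were the largest family. Of the 13 tested, 12 were higher in the Exo than in the Con group (median log2FC 0.50, 6 at an unadjusted p under 0.05, against 8.92% of all genes) and 12 lower in pLV-Exo-Wnt5a than in Exo (median -0.58, 7 at that p, against 6.91%). Between pLV-Exo-Wnt5a and Con, 7 of 14 were higher and 7 lower (median 0.09). The alpha subunits, with the beta subunits, form the GABA site. Gabra4 (NCBI gene number 14397), an alpha subunit of receptors outside the synapse, was at 2.28, 4.21 and 4.53 CPM in Con replicates 1, 2 and 3, at 7.88, 7.45 and 7.5 CPM in the Exo replicates and at 6.26, 4.38 and 4.5 CPM in the pLV-Exo-Wnt5a replicates. The Exo libraries lay together above every Con and pLV-Exo-Wnt5a library. Gabra4 had the smallest unadjusted p of the receptor genes between Exo and Con (log2FC 1.05 (standard error 0.24, Q = 0.265)), and its log2FC was -0.58 (standard error 0.17, Q = 0.179) for pLV-Exo-Wnt5a against Exo and 0.46 (standard error 0.27, Q = 0.663) against Con. Gabra5 (NCBI gene number 110886), an alpha subunit abundant in the developing hippocampus, was at 19.9, 29.6 and 38.5 CPM in Con replicates 1, 2 and 3, at 38.7, 41.7 and 41.9 CPM in the Exo replicates and at 40.5, 42.4 and 36.3 CPM in the pLV-Exo-Wnt5a replicates. Here Exo overlapped with pLV-Exo-Wnt5a (log2FC -0.02, standard error 0.08) and Con replicates 1 and 2 were below both, while Con replicate 3 lay within the pLV-Exo-Wnt5a range (log2FC 0.47 (standard error 0.19, Q = 0.302) for Exo and 0.44 (standard error 0.18, Q = 0.585) for pLV-Exo-Wnt5a against Con). Gabra3 (NCBI gene number 14396), an alpha subunit of immature neurons, was at 7.39, 9.73 and 14.3 CPM in Con replicates 1, 2 and 3, at 14.3, 15.6 and 15.2 CPM in the Exo replicates and at 11.3, 13.6 and 11.9 CPM in the pLV-Exo-Wnt5a replicates. The highest Con library nearly reached the lowest Exo library, and all pLV-Exo-Wnt5a libraries were below the Exo libraries (log2FC 0.52 (standard error 0.21, Q = 0.302) for Exo against Con, -0.28 (standard error 0.11, Q = 0.355) for pLV-Exo-Wnt5a against Exo). Gabra2 (NCBI gene number 14395) was between 0.514 and 1.81 CPM with overlapping groups.

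Of the beta subunits, which the channel needs to assemble, Gabrb2 (NCBI gene number 14401) was at 1.63, 1.82 and 1.86 CPM in Con replicates 1, 2 and 3, at 2.3, 2.2 and 3.03 CPM in the Exo replicates and at 1.99, 1.09 and 1.11 CPM in the pLV-Exo-Wnt5a replicates. The pLV-Exo-Wnt5a libraries were below the Exo libraries, with replicate 1 apart from the other 2 (log2FC -0.83 (standard error 0.30, Q = 0.305)). Gabrb1 (NCBI gene number 14400) was between 2.41 and 4.75 CPM (log2FC -0.41, standard error 0.18, Q = 0.399 for pLV-Exo-Wnt5a against Exo). Gabrg1 (NCBI gene number 14405), a subunit also known from glia, was between 0.778 and 2.97 CPM (log2FC -0.62 (standard error 0.27, Q = 0.4) in that comparison). Gabrg3 (NCBI gene number 14407) was at 1.25 to 1.34 CPM in Con, 1.14 to 1.65 CPM in Exo and 0.41 to 1.24 CPM in pLV-Exo-Wnt5a libraries (log2FC -0.78 (standard error 0.42, Q = 0.644) against Con). Gabrd (NCBI gene number 14403), the delta subunit of tonic inhibition outside the synapse, was the 1 tested GABA-A gene with a negative log2FC for Exo against Con, -0.15 (standard error 0.28, Q = 0.79), and lay between 2.45 and 5.22 CPM. Gabrq (NCBI gene number 57249), the theta subunit, was between 0.492 and 1.24 CPM and Gabre (NCBI gene number 14404), the epsilon subunit, between 0 and 0.606 CPM. The rho genes, known from the retina, were at the edge of detection: Gabrr1 (NCBI gene number 14408) had 0 to 5 counts, Gabrr2 (NCBI gene number 14409) 1 to 16 counts and Gabrr3 (NCBI gene number 328699) 8 counts in Exo replicate 1 and 0 in the other 8 libraries, which allows up to 0.0727 to 0.0913 CPM.

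**Figure D3:**
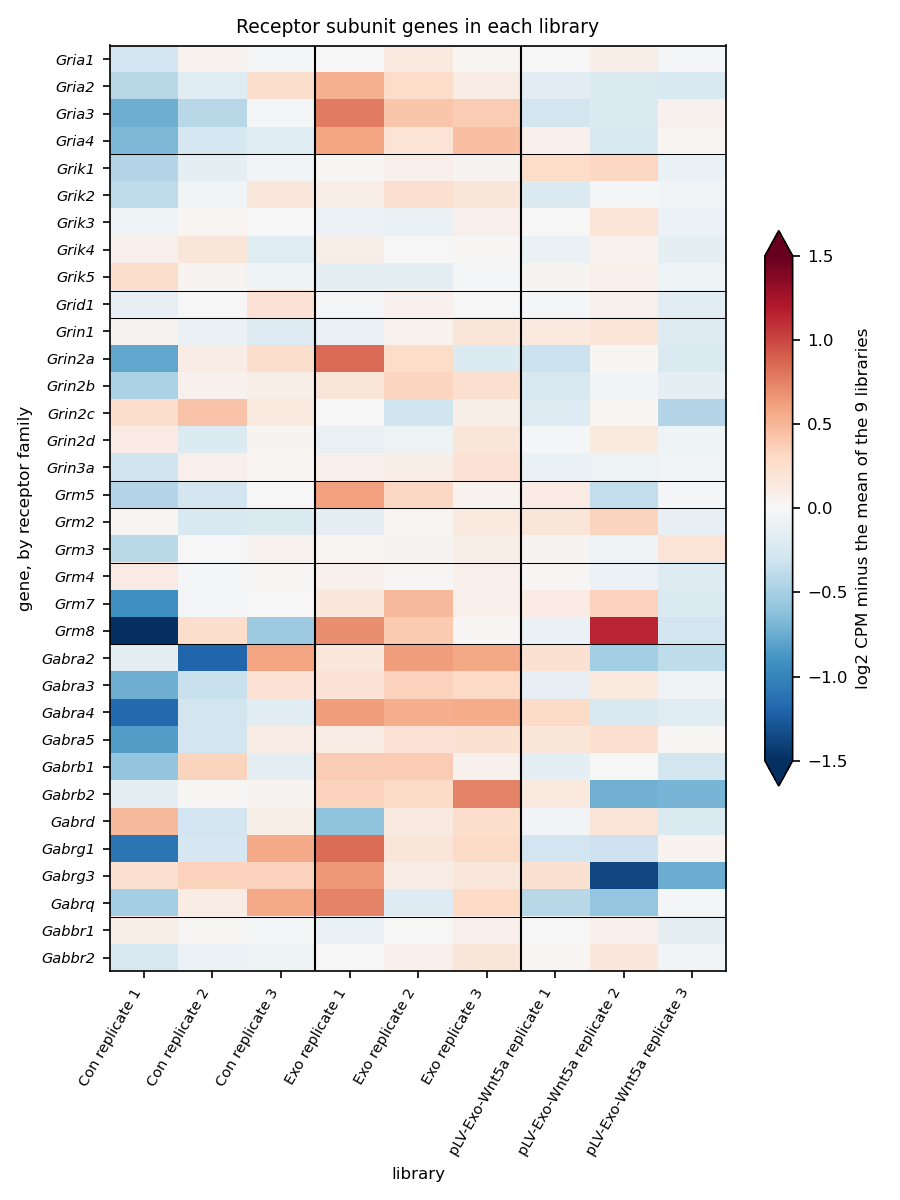
Log2 CPM minus the mean of the 9 libraries for 34 of the 39 receptor genes tested in all comparisons, by family (rows) and library (columns); the colour scale ends at 1.5 in each direction, and values past it take the end colour. The column of Con replicate 1 is blue for most GABA-A, AMPA and mGlu rows, the 3 Exo columns are mostly red there, and Grik5, Grin2c and Gabrd are red in Con replicate 1.

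GABA-B receptors are obligate pairs of a GABA-binding and a G-protein-coupling subunit. Gabbr2 (NCBI gene number 242425), the coupling subunit, was at 79.1, 87.4 and 88.8 CPM in Con replicates 1, 2 and 3, at 92.5, 98.4 and 106 CPM in the Exo replicates and at 95.5, 104 and 90.4 CPM in the pLV-Exo-Wnt5a replicates. The Con libraries were below all 6 exosome-treated libraries (log2FC 0.21 (standard error 0.09, Q = 0.306) for Exo and 0.18 (standard error 0.09, Q = 0.63) for pLV-Exo-Wnt5a against Con). Gabbr1 (NCBI gene number 54393), the binding subunit, was at 653 ± 27.9 CPM in Con, 629.6 ± 41.2 CPM in Exo and 628 ± 45.6 CPM in pLV-Exo-Wnt5a libraries (SD, n = 3 each) with overlapping groups. The ratio of Gabbr2 to Gabbr1 counts, which no scaling of a library moves, was 0.116, 0.136 and 0.141 in the Con replicates, 0.156 to 0.158 in the Exo and 0.150 to 0.156 in the pLV-Exo-Wnt5a libraries. All Con ratios were below all others. The ratio of Gria2 to Gria1 counts was 0.103 to 0.148 in Con, 0.128 to 0.175 in Exo and 0.0998 to 0.109 in pLV-Exo-Wnt5a libraries, and that of Grik2 to Grik5 was 0.0334 to 0.0617, 0.0599 to 0.0677 and 0.0444 to 0.0534. For these ratios, Exo and pLV-Exo-Wnt5a libraries did not overlap and the Con libraries overlapped both. The ratio of Grin2b to Grin1 was 0.187 to 0.328 in Con, 0.280 to 0.329 in Exo and 0.205 to 0.279 in pLV-Exo-Wnt5a libraries. With 3 libraries against 3, an exact permutation test cannot go below 0.1, so the ratios were not tested.

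Markers of other cell types were read beside the receptor genes. At an unadjusted p under 0.05, 8.92% of all genes were higher and 6.01% lower between Exo and Con. Between pLV-Exo-Wnt5a and Exo, 5.07% were higher and 6.91% lower. The counts of each marker list below are to be read against these shares. The 12 neuron markers, each above 3 counts in every library, had a summed level of 3332 to 3415 CPM in Con, 3420 to 4032 CPM in Exo and 3221 to 4071 CPM in pLV-Exo-Wnt5a libraries. The sums of all Exo libraries were thus above those of all Con libraries, by little at the nearest pair, and the pLV-Exo-Wnt5a range covered both. In the Exo group, 11 of 12 were higher than in Con, 8 at an unadjusted p under 0.05 (8.92% of all genes) and 0 at Q under 0.05 in edgeR, among them Snap25 (22.7, 34.8 and 40.9 CPM in Con, 46.1 to 56.3 CPM in Exo) and Dcx (50.5, 75.9 and 97.9 CPM in Con, 98.7 to 117 CPM in Exo), both lowest in Con replicate 1. Not all neuron markers moved. Tubb3 had means of 1793 CPM in Con and 1774 CPM in Exo, and Rbfox3 had means of 86.9 and 87.8 CPM. In pLV-Exo-Wnt5a libraries, 3 of the 12 were lower than in Exo at an unadjusted p under 0.05 (6.91% of all genes) and 0 higher (5.07%). By sign, 8 were lower and 4 higher, with a median log2FC of -0.03. Dcx was among the lower ones, at 66.2 to 76.4 CPM (log2FC -0.60, Q = 0.0113 from edgeR). Against Con, 10 of the 12 were higher in pLV-Exo-Wnt5a (median 0.26), 4 of them at an unadjusted p under 0.05 (4.2% of all genes). The 9 astrocyte markers summed to 4165 to 5016 CPM in Con, 4053 to 4153 CPM in Exo and 5729 to 6042 CPM in pLV-Exo-Wnt5a libraries, the last carried by Gfap (log2FC 0.86, Q = 3.36e-05 against Exo), while at an unadjusted p under 0.05 Aldh1l1 was higher too and Slc1a2, Slc1a3 and Fgfr3 were lower. Between Exo and Con, Aldh1l1 was lower and Aqp4 higher at that p. The 6 neural stem cell markers summed to 2994 to 3158, 2532 to 3029 and 2909 to 3851 CPM (Con, Exo, pLV-Exo-Wnt5a). Of these, Hes5, Nes and Vim were lower in Exo than in Con at an unadjusted p under 0.05, and Nes and Vim were higher in pLV-Exo-Wnt5a than in Exo, Vim with Q under 0.05 (log2FC 0.62, Q = 0.0389 from edgeR), opposite in direction to most receptor genes. The 6 oligodendrocyte precursor markers summed to 2594 to 2858, 2470.2 to 2825 and 2230.3 to 2545 CPM. Of these, 2 were higher and 4 lower in Exo than in Con, 1 of them lower at an unadjusted p under 0.05. In pLV-Exo-Wnt5a libraries, 5 were lower than in Exo and 5 lower than in Con. At that p, 2 were lower than in Exo and 3 lower than in Con (4.15% of all genes against Con), and 0 higher. The 6 markers of mature oligodendrocytes summed to 949 to 1104 CPM in Con, 856 to 903 CPM in Exo and 847 to 1030 CPM in pLV-Exo-Wnt5a libraries, all Exo sums below all Con sums. Of the 5 tested, Mag and Mbp were lower in Exo than in Con at an unadjusted p under 0.05 (median log2FC -0.38) and higher in pLV-Exo-Wnt5a than in Exo (median 0.40), which is opposite in direction to most receptor genes in both comparisons. Mog was at or under 3 counts in 4 libraries. The 6 microglia markers were low and summed to 4.13 to 5.90 CPM in Con, 1.71 to 2.75 CPM in Exo and 4.43 to 5.78 CPM in pLV-Exo-Wnt5a libraries, so that the Exo libraries were below all others. Of the 4 tested, 2 were lower in Exo than in Con at that p (median log2FC -1.02) and 2 higher in pLV-Exo-Wnt5a than in Exo (median 0.83), with 0 of either list at Q under 0.05 in edgeR. P2ry12 and Tmem119 were at or under 3 counts in 6 and 5 libraries. The 6 fibroblast and mesenchymal markers summed to 131 to 154 CPM in Con, 144 to 153 CPM in Exo and 123 to 136 CPM in pLV-Exo-Wnt5a libraries. Thy1 alone had means of 130, 138 and 117 CPM. Of the 5 tested, all were higher in Exo than in Con, 0 at an unadjusted p under 0.05. Against Exo, 3 were lower and 2 higher in pLV-Exo-Wnt5a, 2 of them lower at that p. The part of these cell types in the receptor values was not tested.

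**Figure D4:**
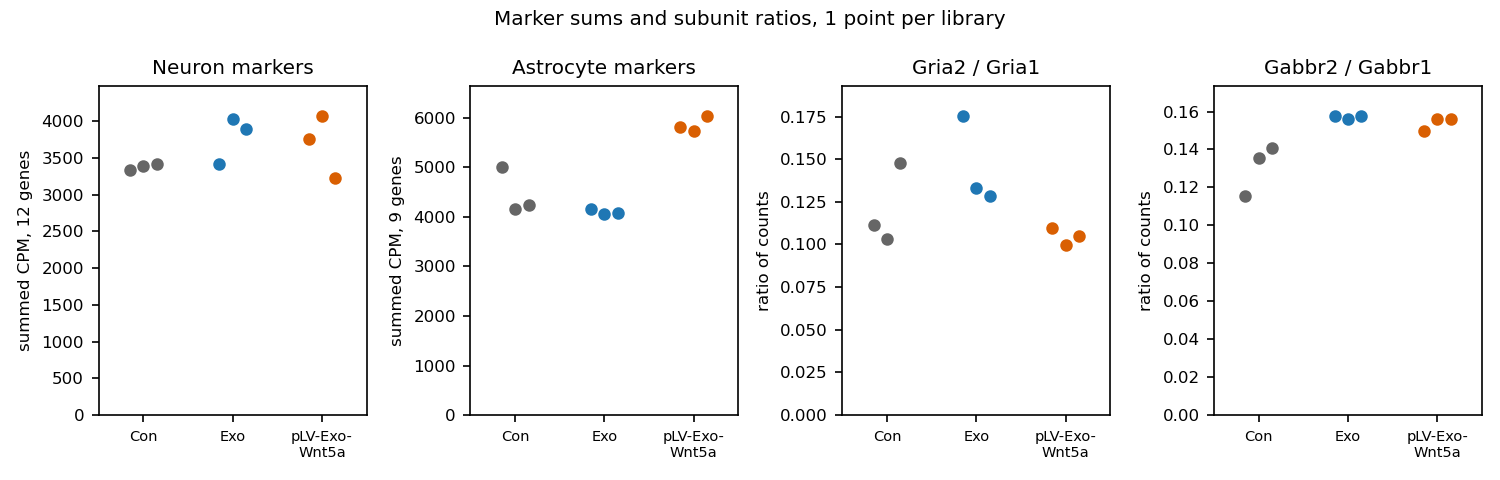
Summed CPM of 12 neuron and 9 astrocyte markers, and the ratios of Gria2 to Gria1 and of Gabbr2 to Gabbr1 counts, 1 point per library. The Exo neuron sums are all above the Con sums and the pLV-Exo-Wnt5a sums overlap both, the pLV-Exo-Wnt5a libraries have the highest astrocyte sums, and the Con libraries have the lowest Gabbr2 to Gabbr1 ratios.

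Genes that act with the receptors were taken from lists by role. Between Exo and Con, 21 of the 85 tested had an unadjusted p under 0.05, 17 higher and 4 lower, where 14.9% of all genes did, 8.92% higher and 6.01% lower. The list of GABA-B auxiliary subunits and channels is given first, and had the largest median log2FC of these lists. In the Exo group all 8 were higher than in Con (median log2FC 0.66), 6 of them at an unadjusted p under 0.05 and 0 at Q under 0.05, led by Kctd8 (means of 1.89 CPM in Con and 3.91 CPM in Exo, log2FC 1.04 (Q = 0.265)) and Kctd12 (means of 32.5 and 61.7 CPM, 0.92 (Q = 0.265)), which set how fast GABA-B responses fade. Con replicate 1 was the lowest of the 9 libraries for 6 of the 8 genes (Kctd12 was at 19.1 CPM there and at 31.3 and 47.1 CPM in Con replicates 2 and 3). Without it, 6 of the list were at an unadjusted p under 0.05, where 12.1% of all genes were. With any other library left out, 5 or 6 were, where 8.64% to 23.4% of all genes were. In pLV-Exo-Wnt5a libraries, 7 of the 8 were lower than in Exo (median -0.28), 2 of them at that p (6.91% of all genes). Against Con, all 8 were higher in pLV-Exo-Wnt5a (median 0.30), 1 of them at that p (4.2% of all genes). Of the 7 genes of glutamate and GABA synthesis and degradation, 4 were higher at an unadjusted p under 0.05, led by Gad1, the main enzyme that makes GABA (log2FC 0.34 (Q = 0.265)), and Aldh5a1, an enzyme of a later step in its breakdown (0.24 (Q = 0.277)). Of 2 chloride cotransporters, Slc12a2, which loads immature neurons with chloride, was higher at that p (log2FC 0.61 (Q = 0.33)) and Slc12a5, which extrudes it, had 0.12 (Q = 0.53). The other lists had medians between -0.03 and 0.33. Of 16 AMPA receptor auxiliary genes, Nptx1 was higher (0.33 (Q = 0.265)) and Nptx2 lower (-0.40 (Q = 0.265)), both neuronal pentraxins that cluster AMPA receptors. Of 22 postsynaptic scaffolds, 4 were higher and 1 lower at an unadjusted p under 0.05, with Homer3 (-0.38 (Q = 0.265)) and Dlgap1 (0.28 (Q = 0.265)) first by p. Of 11 GABA receptor clustering and assembly genes, Gabarap (-0.23 (Q = 0.308)) and Clptm1 (-0.20 (Q = 0.323)) were lower at that p. The kainate auxiliary genes Neto1 (0.26 (Q = 0.369)) and Neto2 (0.40 (Q = 0.408)), the vesicular transporters Slc32a1 (0.19 (Q = 0.35)) and Slc17a6 (0.56 (Q = 0.409)) and the plasma membrane transporters Slc1a1 (0.17 (Q = 0.361)) and Slc1a3 (0.20 (Q = 0.39)) had the smallest p of their lists, and none was under 0.05.

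For pLV-Exo-Wnt5a against Exo, 1 gene of these lists passed the test, and 19 of the 86 tested had an unadjusted p under 0.05, 3 higher and 16 lower, where 12% of all genes did, 5.07% higher and 6.91% lower. Slc6a11, a GABA transporter of astrocytes, fell, and was at 808, 767 and 759 CPM in Con replicates 1, 2 and 3, at 834, 794 and 859 CPM in the Exo replicates and at 609, 552 and 578 CPM in the pLV-Exo-Wnt5a replicates (log2FC -0.50, Q = 0.00363 from edgeR). All 3 pLV-Exo-Wnt5a libraries were below the other 6. Of the 7 plasma membrane transporters tested, 5 were lower at an unadjusted p under 0.05, including the glutamate transporter Slc1a2 (-0.42 (Q = 0.176)). Nptx1 (-0.56 (Q = 0.0563)), Gsg1l (-0.63 (Q = 0.0583)) and Kctd12 (-0.55 (Q = 0.0583)) came near the threshold. Gsg1l is an auxiliary subunit that slows the recovery of AMPA receptors. Of the kainate auxiliary genes and the scaffolds, the smallest p belonged to Neto2 (-0.48 (Q = 0.295)) and Neto1 (-0.23 (Q = 0.417)), and to Dlg2 (-0.30 (Q = 0.259)) and Dlgap2 (-0.25 (Q = 0.385)). Kcnj3, a potassium channel opened through GABA-B receptors, had -0.37 (Q = 0.392), and the enzymes Aldh5a1 and Glul had -0.24 (Q = 0.171) and -0.18 (Q = 0.226). The vesicular transporters Slc17a6 and Slc17a8 had -0.40 (Q = 0.471) and -0.94 (Q = 0.558), the cotransporters Slc12a2 and Slc12a5 -0.20 (Q = 0.637) and 0.04 (Q = 0.921), and the effectors Gna11 and Plcb1 0.11 (Q = 0.5) and -0.28 (Q = 0.573). All 7 genes of synthesis and degradation and all 4 vesicular transporters had negative log2FC in this comparison, 2 and 0 of them at an unadjusted p under 0.05. Between pLV-Exo-Wnt5a and Con, 0 genes of the lists passed Q under 0.05 in edgeR, and 11 of 86 had an unadjusted p under 0.05, where 8.35% of all genes did. Slc6a11 had the smallest p (-0.43 (Q = 0.141)). The first of the other lists were Nptx2 (-0.62 (Q = 0.31)) and Cacng5 (0.50 (Q = 0.419)) of the AMPA auxiliary list, Gad1 (0.30 (Q = 0.509)) and Glul (-0.22 (Q = 0.546)) of the synthesis list, Gabarap (-0.27 (Q = 0.529)) and Clptm1 (-0.23 (Q = 0.57)) of the clustering list and App (0.23 (Q = 0.546)) of the GABA-B list. The first gene by p of each remaining list was above 0.05.

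The table's own pathway annotation gave wider lists. The KEGG glutamatergic synapse held 111 listed genes, 23 of them receptor genes. Of the other 88, 80 were tested between Exo and Con, with 18 higher and 5 lower at an unadjusted p under 0.05 (8.92% and 6.01% of all genes) and a median log2FC of 0.13, and 81 between pLV-Exo-Wnt5a and Exo, with 3 higher and 15 lower (5.07% and 6.91% of all genes) and a median of -0.06. The KEGG GABAergic synapse held 86, of which 67 were not receptor genes. Of the 59 tested between Exo and Con, 13 were higher and 3 lower at that p (median 0.12), with the same shares of all genes, and of the 61 tested between pLV-Exo-Wnt5a and Exo, 1 was higher and 10 lower (median -0.03). At Q under 0.05 in edgeR, Prkcb, a protein kinase C in both lists, fell from a mean of 128 CPM (Exo) to 95.2 CPM (pLV-Exo-Wnt5a; log2FC -0.41, Q = 0.0258), and Slc6a11 was the other gene to pass. None of these genes passed between Exo and Con.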

How the data were processed

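RNA-seq data came from 9 libraries, 3 per group. The deposited values are counts per gene in whole numbers, which the authors did not normalize. The paper names HISAT2 for alignment, whereas the submitters' processing notes name Bowtie2, RSEM 1.3.1 and DESeq2 1.4.5, so the deposited counts may be rounded estimates in which reads shared by similar genes were split. The build, the annotation and the use of strand are not given in the sources used here. Symbols and NCBI gene numbers in the table are those of the mouse, while the labels give rat.

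Each pair of groups (6 libraries) was filtered with filterByExpr, scaled by TMM and compared by quasi-likelihood in edgeR 4.0.16 (R 4.3.3), with Benjamini-Hochberg adjustment over all genes tested and a threshold of 0.05. The standard error of a log2FC came from the test statistic. CPM used TMM over all 9 libraries. Gene lengths were not used here, so levels were not compared between genes, except that mean CPM helped to choose which genes to name. The steps were tested on simulated data. Alternatives were RLE normalization, DESeq2 1.42.0, all 9 libraries in 1 fit, no filter, at least 10 counts in every library, the replicate number as a block and leaving out each library. Named with values were the 8 receptor genes with the smallest p per comparison, the highest 2 of each family by mean CPM, and the first 2 by p of each associated list; the other receptor genes are given by the range of their levels. The values of Gabra3 in each library, the log2FC of Grik2, Grik4, Grin2d, Gabrb1, Gabrg1 and Gabrd, and the markers and KEGG genes named beyond Tubb3, Gfap, Olig2 and Sox2 were added after their values were seen. The receptor genes and the lists were chosen with earlier results of these data known, and the KEGG lists were read from the table after it was seen. Some genes that the rule picked, receptor genes among them, are counted but not reported here. Columns of the authors' own comparisons were not used.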

Additional observations from a re-analysis of the deposited data

How the results depend on the processing

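The direction of 286 values of 24 gene and comparison pairs picked by p was the same under every alternative run. In 271 the side of the Q threshold was the same as well, and 15 passed it where the reported value did not. These pairs had the smallest p in the same libraries, and each alternative used all or most of those libraries. A shared direction was thus likely from the start and is no test of the differences. The number of receptor genes at Q under 0.05 was 3 between Exo and Con with DESeq2 and 3 with no filter on low counts (Gabra4 and Gria4 among them in both), where these called 1.74% and 1.93% of all genes, and between pLV-Exo-Wnt5a and Exo it was 3 with DESeq2 and 2 with no filter (Gria2 and Grin2b), where 2.72% and 1.71% of all genes were called. With all 9 libraries in 1 edgeR fit, 8 receptor genes were at an unadjusted p under 0.05 between pLV-Exo-Wnt5a and Exo (7.41% of all genes) and 4 between pLV-Exo-Wnt5a and Con (10.9%), where no filter gave 5 (8.15%). The cause of these differences was not tested. Leaving out each library in turn gave 0 to 5 receptor genes at Q under 0.05 between Exo and Con and 0 in both other comparisons, and 5 to 18, 9 to 13 and 1 to 7 at an unadjusted p under 0.05 for Exo against Con, pLV-Exo-Wnt5a against Exo and pLV-Exo-Wnt5a against Con, where 8.64% to 23.4%, 8.55% to 13.4% and 4.07% to 14.4% of all genes were called. The median log2FC was 0.16 to 0.33, -0.24 to -0.17 and 0.02 to 0.11 in these fits. Same-numbered libraries did not deviate together (r from -0.201 to 0.0634 over 9 pairs), so the replicate number does not pair them; with it as a block, 11, 12 and 2 receptor genes were at an unadjusted p under 0.05 (9.4%, 12.4% and 9.23% of all genes) and 0 at Q under 0.05 in edgeR. Among the tested genes, counts were low, and counting error thus large, for genes such as Grin2a, Grm8, Gabrq and Gabre, with at most 53 counts in any library. The untested Gabrr1, Gabrr2, Gabrr3 and Grin3b had at most 26.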
